A study of Mus musculus with 54 samples.

Results

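Fbxo32 and 8 genes that belong to the FOXO pathway were followed through an experiment in which primary mouse microglia loaded with alpha-synuclein (aSyn) were mixed with unloaded microglia. The set holds the transcription factors Foxo1 and Foxo3, the upstream components Irs2 and Pik3ip1, and Fbxo32, Sesn1, Sesn3, Ccng2 and Txnip, which are known FOXO target genes. These 9 genes were taken by symbol from the 16632 genes of the deposited count table, and all 9 were among the 13169 genes that passed the filter on low counts. Fbxo32 was chosen by its RNA level, which differed over the co-culture times, so its values during co-culture are given as a description without a test. The other 8 genes were added because they are FOXO factors or known FOXO targets.

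FOXO factors are transcription factors that insulin and growth factor signalling keeps out of the nucleus. Receptor signalling through adaptors such as Irs2 activates PI3-kinase and AKT, AKT phosphorylates FOXO proteins, and phosphorylated FOXO is held in the cytoplasm. When this signal falls or stress kinases act, nuclear FOXO drives genes for protein breakdown, growth arrest and stress resistance, and in muscle the FOXO-driven ubiquitin ligase subunit Fbxo32 (atrogin-1) is a classic marker of wasting.

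The cells came from neonatal C57BL/6 mice, with the cells of 2 brains in each flask, were grown for 7 to 10 days and were shaken off an astrocyte layer. Untreated cells and cells given 1 µM Atto-488-labelled aSyn for 14 h (aSyn-treated) were collected without co-culture. Donors had the same aSyn exposure, acceptors carried a violet cell dye and no added aSyn, and both were separated by flow sorting after 15, 30, 60, 150 or 300 min together. Libraries labelled 0 min also exist, but the protocol does not describe that time, and whether the untreated and aSyn-treated cells passed through the sorter is not stated. Replicate numbers 1 to 4 in the labels are called experiments here. They differ in passage (3, 1, 2 and 2), but nothing states that they are separate animals, so p-values measure the spread between these samples only.

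The 54 libraries held 7807389 to 15537493 counts each. Experiment 4 has no 0 min library, carries its own run of facility library numbers, and gave the ribosomal RNA precursor Rn45s a mean of 18.2% of counts against 6.60% in the other experiments. The untreated cells of experiments 2 and 4 had 2 libraries each, which were summed, leaving 52 samples in 14 groups of 3 or 4. The microglial markers Csf1r, C1qa and Cx3cr1 were detected in every sample, at 559 to 2434, 390.1 to 3898 and 18.5 to 750 CPM (counts scaled to a common library size), while P2ry12 and Tmem119 were low, at 1.48 to 12.3 and 0.925 to 13.1 CPM. In experiment 4 the aSyn-treated, donor and acceptor samples were the lowest of their groups for these first 3 markers. Csf1r there was at 559 to 753 CPM in aSyn-treated cells and donors, against 1391 to 2434 CPM in the other experiments. In acceptors it was at 958 to 1355 CPM in experiment 4 and at 1368 to 2155 CPM in the others. The untreated sample of experiment 4 was the lowest of its group for Csf1r and C1qa (906 and 888 CPM) and not for Cx3cr1. Markers of astrocytes, neurons, oligodendrocytes, fibroblasts, endothelium and border macrophages were also detected.

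The reads lie near the 3′ end of each transcript. Fbxo32 lies at chr15:58175879-58214892 on the minus strand of GRCm38. Irs2 (chr8:10984681-11008929) and Foxo3 (chr10:42181845-42276695) are also on the minus strand. On the plus strand lie Foxo1 (chr3:52268337-52350109), Txnip (chr3:96557957-96561857), Pik3ip1 (chr11:3319241-3342971), Sesn1 (chr10:41810574-41908436), Sesn3 (chr9:14276301-14326134) and Ccng2 (chr5:93267573-93276231). An opposite-strand gene overlaps Fbxo32 (Gm15943), Foxo1 (Gm20402), Pik3ip1 (Gm12592), Irs2 (9530052E02Rik) and Txnip (Gm15441), and whether counting used strand is not stated, so reads of these partners cannot be told apart. Same-strand genes overlap Foxo1 (Gm38034) and Sesn1 (9930024M15Rik). In the last 500 bases of the transcripts, 6 of 451 stretches of 50 bases in Foxo1 also occur in other genes, and none do in the other 8 members.

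FOXO proteins bind the core GTAAACA and the insulin response element CAAAACA, and the E-box CACGTG is bound by the glucose-sensing factors known to drive Txnip. RefSeq promoter windows of 250 bases before the start site (GRCm38.p6) were found for 8 of the 9 members, in 9 windows, and 3 windows held one of these motifs on either strand. They are printed 5′ to 3′ on the gene's strand, with the motifs in capitals, because they are the members' windows in which these motifs were found. Of all 32851 windows of this length, 3.17% held GTAAACA, 5.56% CAAAACA and 6.02% CACGTG. The Irs2 window (chr8:11008930-11009179, minus strand) holds CACGTG 44 bases and CAAAACA, on the other strand, 37 bases before the start site.
Irs2: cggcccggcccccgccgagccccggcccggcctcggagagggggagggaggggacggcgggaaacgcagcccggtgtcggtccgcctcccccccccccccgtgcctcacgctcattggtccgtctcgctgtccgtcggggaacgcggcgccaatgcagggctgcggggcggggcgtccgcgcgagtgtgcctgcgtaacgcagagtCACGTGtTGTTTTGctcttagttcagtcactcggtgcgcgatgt
The Txnip window (chr3:96557707-96557956, plus strand) holds GTAAACA 121 bases before the start site.
Txnip: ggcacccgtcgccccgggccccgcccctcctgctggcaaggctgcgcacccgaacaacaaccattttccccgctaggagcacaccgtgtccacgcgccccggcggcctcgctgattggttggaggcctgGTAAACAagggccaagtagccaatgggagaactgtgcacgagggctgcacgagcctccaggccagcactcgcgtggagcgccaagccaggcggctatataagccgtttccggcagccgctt
The Ccng2 window (chr5:93267323-93267572, plus strand) holds CAAAACA 16 bases before the start site. A match is a description of these letters and no measure of binding.
Ccng2: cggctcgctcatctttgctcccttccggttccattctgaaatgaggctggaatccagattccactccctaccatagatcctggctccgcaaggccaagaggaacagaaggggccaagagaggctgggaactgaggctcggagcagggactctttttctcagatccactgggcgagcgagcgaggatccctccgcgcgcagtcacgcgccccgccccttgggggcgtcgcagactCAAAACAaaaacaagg

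Fbxo32 RNA was about 3 times as high in aSyn-treated as in untreated microglia, stayed at that level in donors through the first 60 min of co-culture, and was at the untreated level by 300 min. Fbxo32 encodes the substrate-binding subunit of an SCF ubiquitin ligase. In untreated cells its level was 6.66, 5.36, 4.63 and 7.92 CPM in experiments 1 to 4, and in aSyn-treated cells 22.8, 17.8, 13.7 and 20.2 CPM. Every aSyn-treated sample lay above every untreated sample. Fold differences within experiments were 3.42, 3.33, 2.96 and 2.55. The edgeR quasi-likelihood test gave a log2 fold change of 1.59 (SE 0.37, adjusted p = 0.00899), with means of 18.6 ± 3.86 and 6.14 ± 1.45 CPM (SD, n = 4 each). Leaving out experiment 1, 2 or 3 took the edgeR adjusted p to 0.0939, 0.0638 or 0.0993, past the threshold of 0.05, while without experiment 4 it was 3.80e-04. With the experiment as a block in the edgeR fit, the log2 fold change was 1.63 (adjusted p = 1.02e-05) and Fbxo32 passed the threshold without any one experiment.

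Donors at 0 min had 25.7, 23.7 and 16.5 CPM of Fbxo32 in experiments 1 to 3. At 15 min the 4 experiments gave 30.1, 21.0, 19.7 and 29.3 CPM, and at 30 min 25.1, 20.6, 17.3 and 35.0 CPM. At 60 min, experiments 1, 3 and 4 gave 20.4, 14.9 and 27.0 CPM. Through these times donor samples lay in or above the range of the aSyn-treated cells. At 150 min Fbxo32 was at 9.96, 6.45, 7.93 and 8.61 CPM, and at 300 min at 6.77, 5.47, 5.79 and 5.09 CPM. No donor sample at 300 min overlapped those at 15 min, and the ratio within experiments was 0.225, 0.261, 0.294 and 0.174. Ranges did not overlap in this comparison for 2.29% of all genes tested, and since Fbxo32 was chosen for this difference nothing is read from it. The donor range at 300 min, with a mean of 5.78 ± 0.718 CPM (SD, n = 4), overlapped the untreated range.

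**Figure D1:**
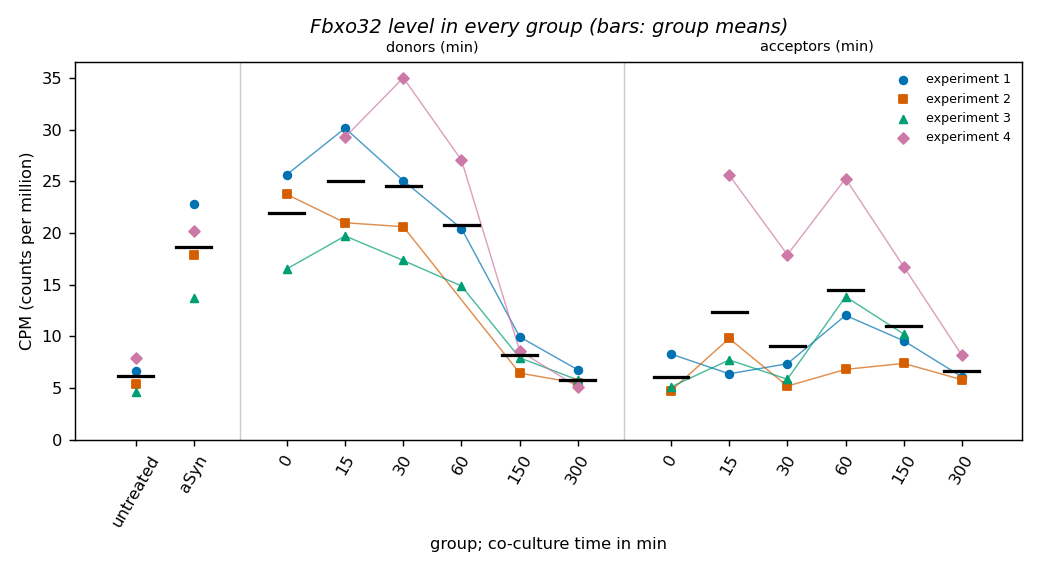
Fbxo32 level in CPM (vertical axis) in the 14 groups (horizontal axis), with a point for each experiment, a black bar for each group mean, and lines joining the samples of 1 experiment over co-culture times in min (spaced evenly, not to scale; experiment 2 has no 60 min donor sample). Donors from 0 to 60 min sit between 14.9 and 35.0 CPM and donors at 300 min between 5.09 and 6.77 CPM, and in acceptors the points of experiment 4 lie above the others.

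In acceptors Fbxo32 was lower and varied more between experiments. At 0 min the acceptors had 8.30, 4.75 and 5.12 CPM, in the range of untreated cells. At 15 min they had 6.38, 9.80, 7.72 and 25.6 CPM, and at 30 min 7.36, 5.20, 5.86 and 17.9 CPM. At 60 min they had 12, 6.81, 13.8 and 25.3 CPM. In each of these 3 groups the sample of experiment 4 was the highest. Acceptors at 150 min had 9.58, 7.39, 10.2 and 16.7 CPM, and those at 300 min 6.09, 5.81 and 8.17 CPM in experiments 1, 2 and 4. Donors exceeded acceptors of the same experiment in every pair up to 60 min, by 3.09 to 4.99 times at 0 min, 1.14 to 4.72 times at 15 min, 1.96 to 3.97 times at 30 min and 1.07 to 1.70 times at 60 min. At 150 and 300 min the ratio was above 1 in 1 experiment and below it in the rest. Ordered by mean, the 14 groups ran from donors at 15 min (25.0 ± 5.43 CPM, SD, n = 4) to donors at 300 min, and every neighbouring pair in that order overlapped in range.

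Among the other 8 genes, aSyn exposure alone went with lower levels of the PI3-kinase inhibitor Pik3ip1, of Sesn1 and of Txnip in all 4 experiments, and these falls passed the test only when samples were compared within experiments. Without the block, 1 of the 9 members passed the edgeR test (Fbxo32, higher), where 2.50% of all genes tested did, 1.60% of them higher, and 4 had an unadjusted p under 0.05, where 17.1% of all genes did. DESeq2 also called 1. With the block, 4 members were called, 1 higher and 3 lower, where 19.2% of all genes were, 8.95% higher and 10.2% lower. The median log2 fold change was -0.24 over the 9 members and -0.04 over all genes. CPM ranges of the groups did not overlap for Fbxo32, Pik3ip1 and Sesn1, 3 of 9, against 8.10% of all genes.

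Pik3ip1, a membrane protein that restrains PI3-kinase, was at 3.03, 4.32, 2.23 and 4.64 CPM in untreated cells of experiments 1 to 4. In aSyn-treated cells it was at 1.77, 1.49, 0.875 and 0.436 CPM, the lowest of these resting on 5 counts. Every aSyn-treated sample lay below every untreated one. The log2 fold change came to -1.63 (SE 0.68, edgeR adjusted p = 0.196) without the block and -1.87 (SE 0.52, edgeR adjusted p = 0.00987) with it. Leaving out experiment 2 from the blocked edgeR fit ended the call (adjusted p = 0.0585).

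Sesn1, a stress-induced protein that restrains mTORC1, was at 87.4, 66.4, 92.3 and 84.3 CPM in untreated cells. In aSyn-treated cells it was at 58.2, 42.3, 28.6 and 8.73 CPM, and the groups did not overlap. The ratio within experiments, 0.666, 0.637, 0.310 and 0.104, was lowest in experiment 4. In that experiment the microglial marker Cx3cr1 also went from 349 CPM in untreated to 22.9 CPM in aSyn-treated cells. C1qa went from 888 to 432 CPM there and Csf1r from 906 to 753 CPM. In experiments 1 to 3, Cx3cr1 went from 485, 191 and 330 CPM in untreated to 355, 141 and 140 CPM in aSyn-treated cells. C1qa went from 1268, 3093 and 1770 CPM to 1248, 1363 and 1610 CPM in these experiments. Csf1r was higher there, going from 1440, 1479 and 1297 CPM to 1868, 1522 and 1413 CPM. Cx3cr1 was called lower in aSyn-treated cells with the block (log2 fold change -1.90, edgeR adjusted p = 0.00331), and what part this has in the Sesn1 result was not tested. The log2 fold change came to -1.26 (SE 0.59, edgeR adjusted p = 0.265) without the block and -1.70 (SE 0.33, edgeR adjusted p = 2.87e-04) with it. Without experiment 4 the blocked edgeR fit gave -1.01 (adjusted p = 0.00927), so the size rested in part on that experiment.

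Txnip, an arrestin-like protein that binds thioredoxin and limits glucose uptake, was at 240, 307, 147 and 156 CPM in untreated cells. In aSyn-treated cells it was at 159, 155, 85.4 and 65.4 CPM, which overlaps the untreated range, yet each value was below that of its own experiment. Ratios within experiments were 0.663, 0.505, 0.580 and 0.418. The log2 fold change came to -0.87 (SE 0.41, edgeR adjusted p = 0.263) without the block and -0.91 (SE 0.18, edgeR adjusted p = 3.92e-04) with it. The blocked call was also made without each experiment in turn.

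The insulin receptor adaptor Irs2 was higher in aSyn-treated cells of 4 of 4 experiments, by 1.60, 3.05, 1.01 and 1.39 times, without a call in either fit (log2 fold change 0.58, SE 0.51, edgeR adjusted p = 0.609, and 0.151 with the block). Foxo1 had a log2 fold change of -0.24 with a 95% interval from -0.64 to 0.15, and the cyclin-like growth inhibitor Ccng2 one of -0.09 with an interval from -0.61 to 0.42. Foxo3 and Sesn3 were too low for a narrow estimate, with intervals from -3.37 to 1.26 and from -1.82 to 1.37.

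**Figure D2:**
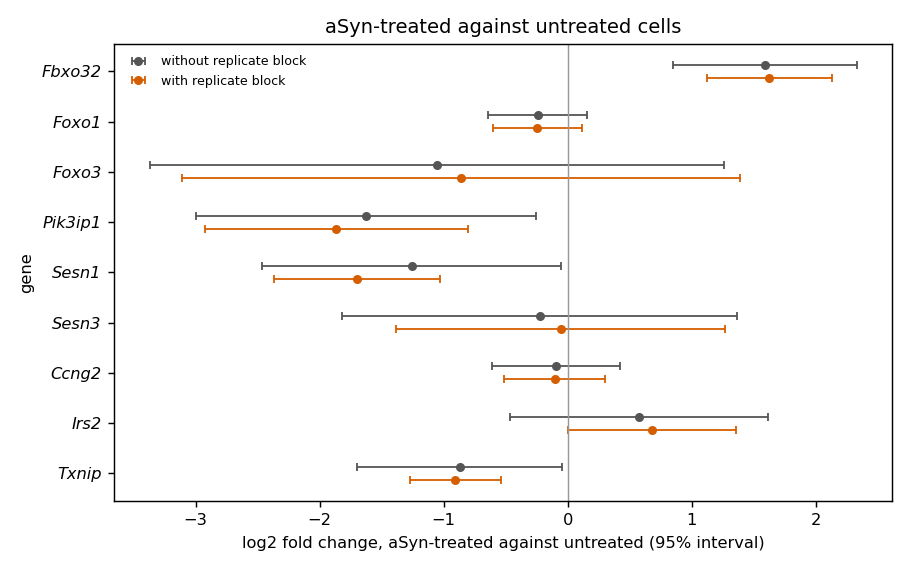
Log2 fold change of aSyn-treated against untreated cells (horizontal axis) for the 9 genes (vertical axis), as points with 95% intervals from the edgeR fit without the replicate block (grey) and with it (orange). Fbxo32 lies to the right of 0 in both fits, and the intervals of Pik3ip1, Sesn1 and Txnip lie to the left of 0 and are narrower with the block.

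Markers of other cell types differed between the same groups. The summed CPM of 8 astrocyte markers was 11.3, 18.8, 77.6 and 139 in untreated cells of experiments 1 to 4 and 13.9, 11.2, 16.7 and 29.3 in aSyn-treated cells. With the block 5 of the 8 were called lower. Without it edgeR called 0 of 8 (3 with an unadjusted p under 0.05) and DESeq2 1. Gfap was at 0 in 18 of 52 samples and Aqp4 in 27. The sum of 7 oligodendrocyte-lineage markers was 200, 116, 573 and 208 CPM in untreated and 158, 117, 246.03 and 79.2 CPM in aSyn-treated cells, with 3 of 7 called lower with the block and 0 of 7 without it by edgeR (2 with an unadjusted p under 0.05) and DESeq2. The sum of 5 neuronal markers was 3.13, 3.75, 22.9 and 30.0 CPM in untreated and 3.09, 1.35, 3.34 and 2.88 CPM in aSyn-treated cells, with 1 of 4 tested called lower with the block (Map2). Of 2 endothelial markers tested, Pecam1 was called higher in aSyn-treated cells by edgeR without the block (log2 fold change 2.53, adjusted p = 0.0389) and with it, at 1.03 to 2.44 CPM against 0 to 0.566 CPM, and Flt1 was not called. The part of these markers in the results was not tested, and in bulk RNA fewer cells of a type and less RNA per cell cannot be told apart.

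Over all 52 samples, Irs2 was the gene whose profile lay nearest to that of Fbxo32 among the 8. During co-culture Irs2 was lower in late than in early donors. No call was made for the 8 genes in donors against aSyn-treated cells over 6 times (0 of 48 tests by edgeR without and with the block and by DESeq2, with 1 and 6 tests under an unadjusted p of 0.05 in the 2 edgeR fits, where 1.75% and 4.84% of all tests were). Of all genes, 0% were called from 0 to 150 min and 0.0304% at 300 min, or 0.304% with the block. Over the 6 donor times 0 of 8 were called by edgeR and by DESeq2, where 0.0607% of all genes were, with 1 unadjusted p under 0.05 against 1.88% of genes. With the block it was 0 of 8, where 0.577% of genes were called, with 3 unadjusted p under 0.05 against 7.72% of genes.

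Irs2 in donors was at 19.8, 20.3, 19.2 and 39.2 CPM at 15 min and at 6.62, 8.36, 10.5 and 7.91 CPM at 300 min. All 300 min samples lay below all 15 min samples. Ranges did not overlap, in either direction, for 2.29% of all genes. Ratios within experiments were 0.334, 0.412, 0.548 and 0.202. The log2 fold change came to -1.56 (SE 0.53, edgeR adjusted p = 0.798) without the block and -1.46 (SE 0.34, edgeR adjusted p = 0.0257) with it. This was the single call of 24 tests of 300 against 15 min with the block, where 0.744% of genes were called in donors, 0% in acceptors and 0.0152% in the difference between them. Without the block 0 of 24 were called by edgeR and by DESeq2 (1 unadjusted p under 0.05, against 2.59% of all tests), where 0.0759% of genes were called in donors. The blocked edgeR call was lost without experiment 1, 2 or 3 (adjusted p = 0.255, 0.136 and 0.131) and kept without experiment 4 (log2 fold change -1.26, adjusted p = 0.00596).

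Sesn1 went the other way in donors. It was at 63.5, 37.9, 27.8 and 14.0 CPM at 15 min and at 102, 80.2, 58.8 and 15.1 CPM at 300 min, so that it was higher at 300 min in 4 of 4 experiments, by 1.61, 2.12, 2.12 and 1.08 times. The groups overlapped, and the difference was not called (log2 fold change 0.84, SE 0.59, edgeR adjusted p = 1, and 0.336 with the block). Txnip was higher at 300 than at 15 min in 4 of 4 experiments, by 1.09 to 1.85 times, also without a call.

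**Figure D3:**
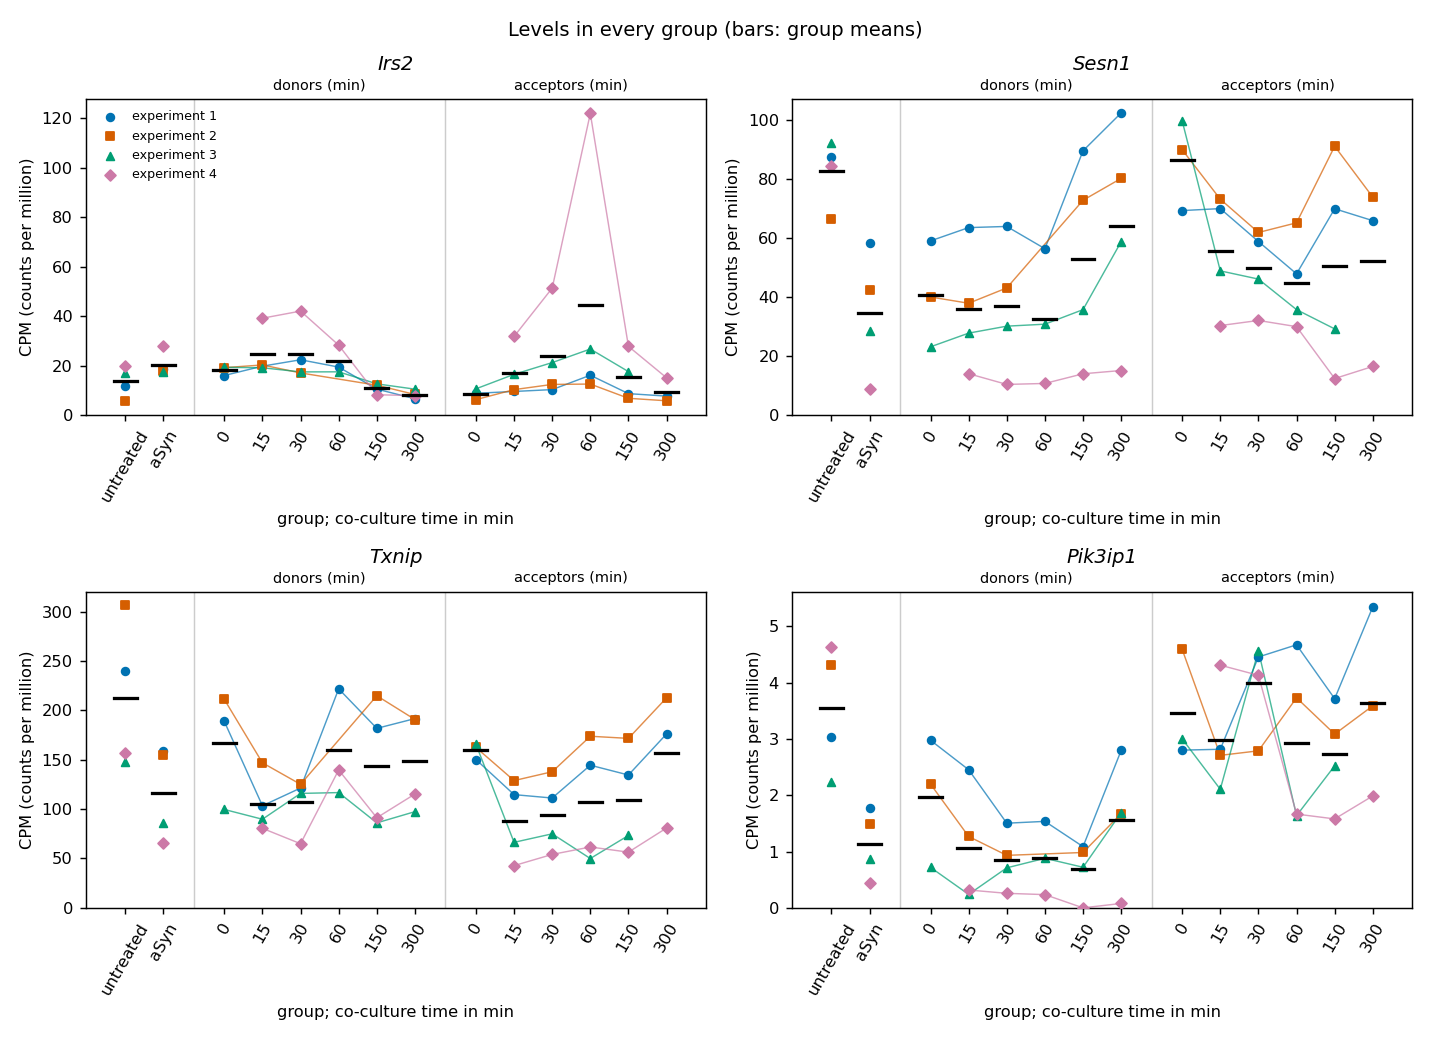
CPM (vertical axes, each with its own scale) of Irs2, Sesn1, Txnip and Pik3ip1 in the 14 groups (horizontal axes, co-culture time in min), with a point for each experiment, black bars for group means and lines joining the samples of 1 experiment. Irs2 in experiment 4 acceptors reaches 122 CPM at 60 min, Sesn1 in experiment 4 is the lowest of the 4 experiments in every donor group it has, and Pik3ip1 is lower in donors than in acceptors from 15 min on for every experiment.

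In acceptors compared with untreated cells, Txnip was lower from 15 to 150 min and Irs2 was higher at 60 min, both called only when samples were compared within experiments. Without the block 0 of 48 tests were called by edgeR and by DESeq2, with 6 under an unadjusted p of 0.05 against 6.78% of all tests. Of all genes, 0%, 0%, 0.114%, 0.0683%, 0.137% and 0% were called at the 6 times in order. With the block 7 were called, where 0.995%, 2.25%, 3.60%, 4.0%, 4.78% and 0.623% of genes were. These 7 comprised Txnip at 15, 30, 60 and 150 min, Sesn1 at 60 and 150 min, and Irs2 at 60 min. The 6 times share the untreated samples. Markers of other cells were lower in the same comparisons. At 15, 30, 60 and 150 min the blocked fit called 1, 2, 1 and 1 of 8 astrocyte markers, all lower, with median log2 fold changes of the list from -1.20 to -1.63. Without the block edgeR called 0 of 8 at each of these times (1, 3, 2 and 1 with an unadjusted p under 0.05), and DESeq2 0. Of 7 oligodendrocyte-lineage markers the blocked fit called 1, 2, 2 and 3 at these times, all lower, and 1 at 0 and at 300 min. Without the block edgeR called 0 of 7 at 15, 30 and 60 min and 1 at 150 min, and DESeq2 called 1 at each of these 4 times. Olig1 of this list was called lower with the block at 30, 60 and 150 min and not by edgeR without it. Its blocked log2 fold changes were -1.77, -1.82 and -1.71 (edgeR adjusted p = 0.0403, 0.0327 and 0.0415). The part of these markers in the acceptor results was not tested.

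Txnip in acceptors was at 115, 129, 66.3 and 42.8 CPM at 15 min and at 111, 138, 74.9 and 54.1 CPM at 30 min, all below the lowest untreated sample. Ranges that did not overlap were found for 3.54% and 3.55% of all genes at these times. At 60 min Txnip was at 144, 174, 50.0 and 61.6 CPM and at 150 min at 134, 172, 73.3 and 56.4 CPM, overlapping the untreated range. The log2 fold changes with the block were -1.33, -1.20, -1.08 and -1.03 (SE 0.18 each), with edgeR adjusted p of 4.88e-05, 1.28e-04, 3.89e-04 and 4.83e-04, and without it -1.27, -1.17, -0.98 and -0.96 (SE 0.41 each, edgeR adjusted p from 0.381 to 0.532). All 4 blocked calls were also made without any one experiment. At 0 min Txnip was at 150, 162 and 166 CPM, with no call.

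Sesn1 in acceptors at 60 min was at 47.9, 65.1, 35.7 and 30.0 CPM, and at 150 min at 69.9, 91.1, 29.2 and 12.4 CPM. At 60 min every experiment was below its untreated sample, while at 150 min experiment 2 was above it. The log2 fold changes were -1.11 and -1.18 with the block (edgeR adjusted p = 0.0393 and 0.0267) and -0.89 and -0.71 without it (edgeR adjusted p = 0.803 and 0.845). The blocked edgeR call at 60 min was lost when any one experiment was left out (adjusted p from 0.0506 to 0.240), and that at 150 min without experiment 3 or 4 (adjusted p = 0.193 and 0.337). Without experiment 4 the value at 150 min was -0.49.

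Irs2 in acceptors at 60 min was at 16.1, 12.6, 26.7 and 122 CPM, against 11.6, 5.80, 17.1 and 20 CPM in untreated cells. It was higher in 4 of 4 experiments, by 1.39, 2.17, 1.56 and 6.10 times, and experiment 4 stood far above the rest. The log2 fold change came to 1.70 (SE 0.52, edgeR adjusted p = 0.244) without the block and 1.40 (SE 0.34, edgeR adjusted p = 0.0113) with it. Without experiment 4 the blocked edgeR value was 0.72 (adjusted p = 0.120), and without experiment 3 it was 1.67 (adjusted p = 0.0534). Over the 6 acceptor times Irs2 was the single call of 8 in the blocked edgeR fit (adjusted p = 0.0377), where 0.137% of genes were called. Without the block 0 of 8 were called by edgeR and by DESeq2 (1 unadjusted p under 0.05, against 1.86% of genes), where 0.00759% of genes were called, and leaving out any one experiment ended the blocked call (adjusted p from 0.0927 to 0.379).

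Between sorted donors and acceptors, Pik3ip1 was lower in donors and made 3 of the 6 calls found among the 8 genes when samples were compared within experiments. Without the block 0 of 48 tests were called by edgeR, with 6 under an unadjusted p of 0.05 against 9.13% of all tests. Of all genes, 0.251%, 0.888%, 0.805%, 0.418%, 0.167% and 0.0304% were called at the 6 times in order. DESeq2 called 1 of 48, Pik3ip1 at 30 min (log2 fold change -2.23, DESeq2 adjusted p = 0.0283). With the block 6 were called, where 4.28%, 9.57%, 10.8%, 6.70%, 5.19% and 1.38% of genes were. They comprised Pik3ip1 at 15, 30 and 150 min, Sesn3 at 15 min and Sesn1 at 0 min, all lower in donors, and Txnip at 60 min, higher in donors.

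Pik3ip1 at 30 min was at 1.5, 0.932, 0.711 and 0.258 CPM in donors (18, 10, 10 and 3 counts) and at 4.46, 2.79, 4.57 and 4.13 CPM in acceptors (66, 44, 60 and 51 counts). All donor samples lay below all acceptor samples. Ranges did not overlap, in either direction, for 5.83% of all genes. The log2 difference was -2.22 (SE 0.70, edgeR adjusted p = 0.138) without the block and -2.42 (SE 0.54, edgeR adjusted p = 0.00299) with it, and the blocked call was made without any one experiment. The astrocyte marker sum at this time ran from 12.1 to 22.4 CPM in donors and from 11.6 to 32.2 CPM in acceptors, with 0 of 8 called by edgeR (0 with an unadjusted p under 0.05) and by DESeq2. The endothelial marker Pecam1 was higher in donors, at 1.46 to 2.52 CPM (17 to 27 counts) against 0.0762 to 0.380 CPM in acceptors (1 to 6 counts). Its log2 difference was 3.45 (edgeR adjusted p = 0.0107), and it was also called at 15 min. Flt1, the other of 2 endothelial markers tested, was not called at these times. The part of these markers in the result was not tested.

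At 15 min Pik3ip1 was at 2.45, 1.27, 0.239 and 0.317 CPM in donors and at 2.82, 2.71, 2.11 and 4.31 CPM in acceptors, with the lower donor values in experiments 3 and 4 at 3 and 4 counts. At 150 min it was at 1.09, 0.983, 0.721 and 0 CPM in donors and at 3.71, 3.09, 2.52 and 1.58 CPM in acceptors, where the 0 of experiment 4 allows up to 0.219 CPM (3 counts, counting error only). The groups overlapped at 15 min and did not at 150 min, where 4.62% of all genes had ranges that did not overlap. The blocked log2 differences were -1.83 and -2.04 (edgeR adjusted p = 0.0251 and 0.0211), against -1.48 and -1.95 without the block (edgeR adjusted p = 0.392 and 0.336). The call at 15 min was lost without experiment 2, 3 or 4, where the blocked edgeR adjusted p was 0.102, 0.128 and 0.121, and the value without experiment 4 was -1.07. The call at 150 min was lost without experiment 1, 2 or 3, at 0.0993, 0.126 and 0.0864.

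**Figure D4:**
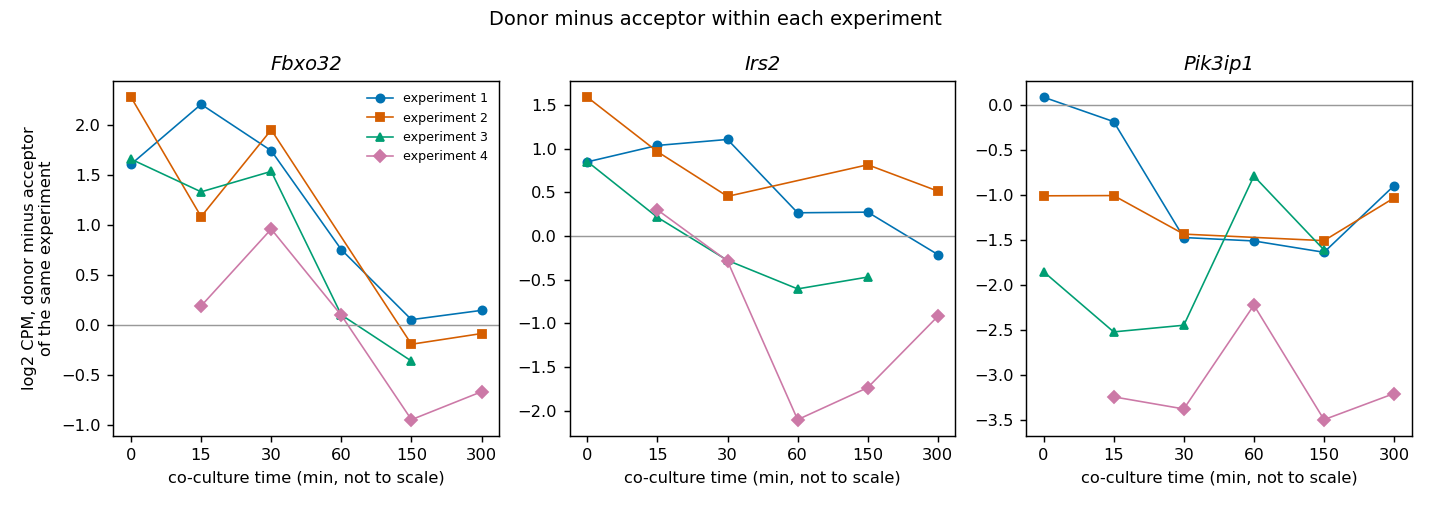
Log2 CPM (prior count 2) of donors minus that of acceptors of the same experiment (vertical axes) against co-culture time in min (horizontal axes, not to scale) for Fbxo32, Irs2 and Pik3ip1, with a line for each experiment. Fbxo32 lies above 0 in every experiment up to 60 min, Irs2 lies on both sides of 0 from 30 min on, and Pik3ip1 lies below 0 in all points but that of experiment 1 at 0 min.

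Sesn3, a relative of Sesn1, was at 0.0876, 0.141, 0.319 and 0.555 CPM in donors at 15 min (1, 2, 4 and 7 counts) and at 1.13, 1.55, 0.772 and 1.12 CPM in acceptors (12, 12, 11 and 13 counts). The groups did not overlap, which held for 5.85% of all genes. The log2 difference was -2.00 (SE 0.85, edgeR adjusted p = 0.326) without the block and -2.28 (SE 0.71, edgeR adjusted p = 0.0355) with it. The blocked call was lost without experiment 1, 2 or 3 (edgeR adjusted p = 0.0952, 0.240 and 0.103).

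Sesn1 at 0 min was at 59.0, 40 and 23.1 CPM in donors and at 69.3, 89.9 and 99.7 CPM in acceptors, again without overlap, as for 16.8% of all genes. The log2 difference was -1.08 (SE 0.68, edgeR adjusted p = 0.777) without the block and -1.24 (SE 0.37, edgeR adjusted p = 0.0451) with it, and the blocked call was lost without experiment 1, 2 or 3 (edgeR adjusted p = 0.0642, 0.206 and 0.648). Without experiment 3 the value was -0.71.

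Txnip at 60 min was at 222, 117 and 140 CPM in donors of experiments 1, 3 and 4 and at 144, 174, 50.0 and 61.6 CPM in acceptors of experiments 1 to 4. Donors were higher in 3 of 3 pairs, by 1.54, 2.34 and 2.27 times, although the groups overlapped. The log2 difference was 0.57 (SE 0.44, edgeR adjusted p = 0.756) without the block and 0.87 (SE 0.19, edgeR adjusted p = 0.00408) with it, and without experiment 4 the blocked edgeR adjusted p was 0.0628. The difference between the donor and acceptor time courses was tested directly, and 0 of 8 genes were called by edgeR without the block, with it or by DESeq2, where 0% and 0.0456% of all genes were called in the 2 edgeR fits. Unadjusted p-values were under 0.05 for 0 and 3 of the 8 in these edgeR fits, against 0.858% and 3.78% of genes.

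The FOXO factors themselves were called in no comparison in the edgeR fits without and with the block. Foxo1 had group means between 14.4 and 23.1 CPM and single samples between 10.6 and 26.5 CPM. Its donor samples at 150 min (18.7, 19.7, 19.8 and 14.9 CPM) all lay below the acceptor samples (22.6, 22.7, 22.8 and 24.2 CPM), with a log2 difference of -0.34 (SE 0.20, edgeR adjusted p = 0.683). Ranges did not overlap, in either direction, for 4.62% of all genes in this comparison, and it was picked after its values were seen. Foxo3 had 3 counts or fewer in 27 of 52 samples and 0 counts in 10, each of which allows up to 0.205 to 0.321 CPM (3 counts), so changes in it were not detectable at this depth. Ccng2 had group means between 21.4 and 36.0 CPM, was lower in donors than in acceptors in 3 of 4 experiments at 15, 30 and 150 min, and was called in no comparison. Sesn3 had 3 counts or fewer in 12 samples.

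**Figure D5:**
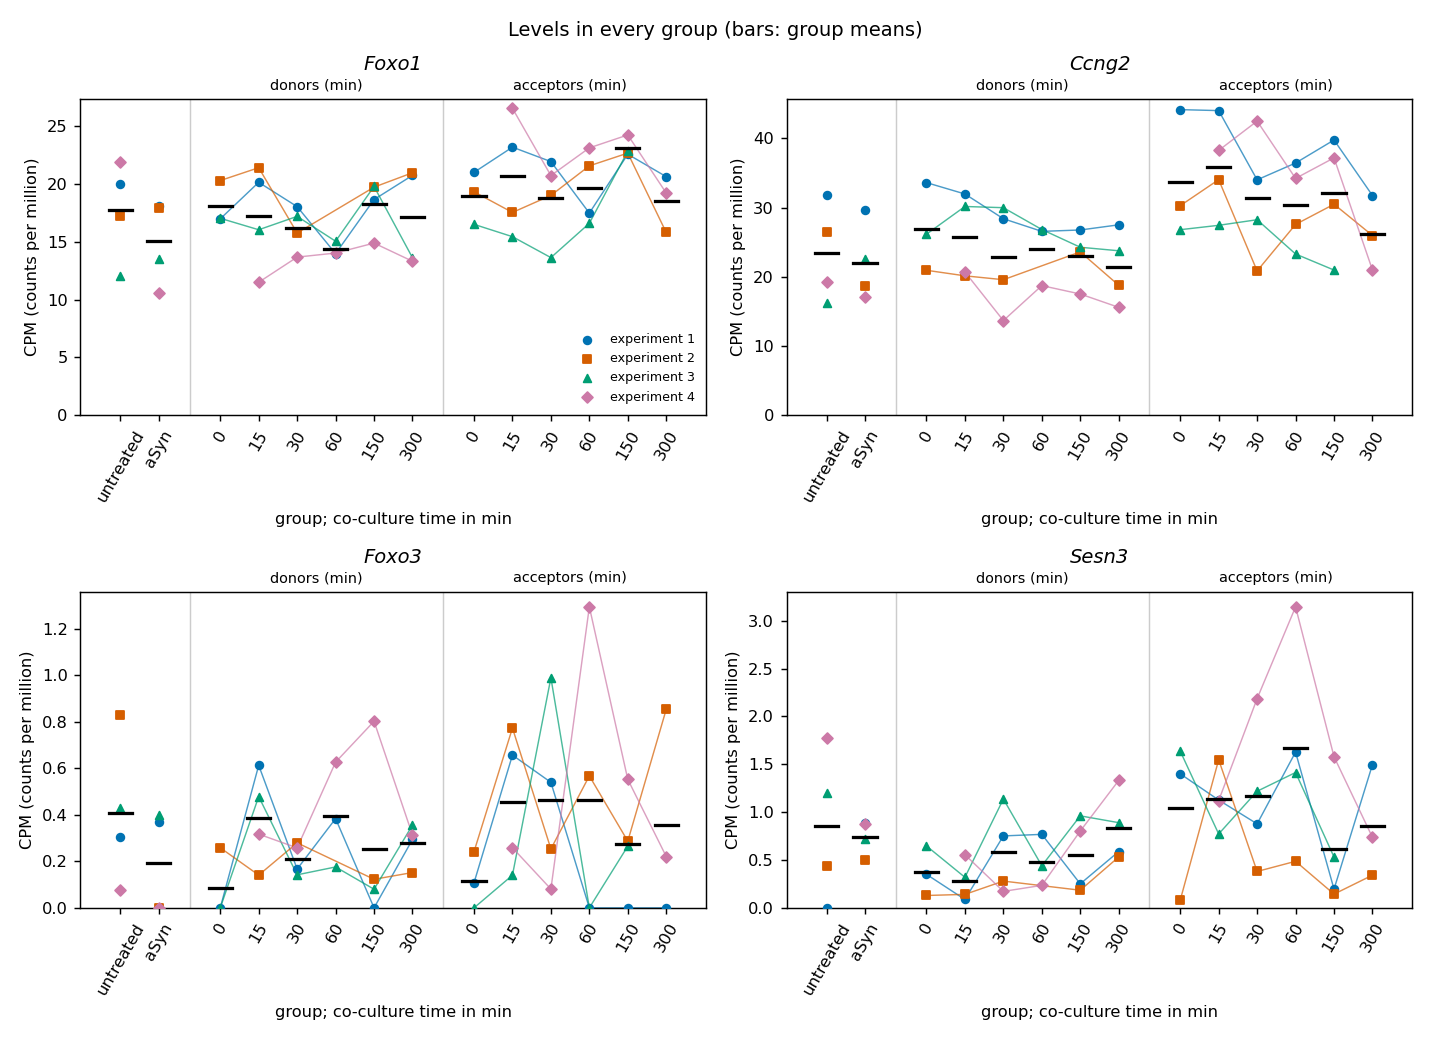
CPM (vertical axes, each with its own scale) of Foxo1, Ccng2, Foxo3 and Sesn3 in the 14 groups (horizontal axes, co-culture time in min), with a point for each experiment, black bars for group means and lines joining the samples of 1 experiment. Foxo1 stays between 10.6 and 26.5 CPM in all 52 samples, and Foxo3 and Sesn3 scatter near the level of a few counts.

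The members differed in how much of their variation followed the groups. Taken alone, group accounted for 75.4% and experiment for 13% of the sum of squares of Fbxo32 log2 CPM over the 52 samples. For Sesn1 the shares were 26.4% and 59.9%, for Txnip 34.9% and 55.6%, for Irs2 45.5% and 34.0% and for Pik3ip1 57.0% and 23.9%. The medians over all genes tested were 25.0% for group and 33.9% for experiment. Fbxo32 was chosen for its difference over the co-culture times, so nothing is read from its group share. With 14 groups of 3 or 4 samples, part of any group share arises from the spread between samples alone. Across the 52 samples, which share libraries and depth, the 5 genes outside the set with the profile most like Fbxo32 after centring on each experiment were Fosb (Pearson r = 0.853), Spty2d1 (0.849), Cxcr4 (0.830), 1700017B05Rik (0.828) and Samd8 (0.827). Fosb, an AP-1 transcription factor, went from 2.52 ± 1.64 CPM in untreated to 15.1 ± 4.95 CPM in aSyn-treated cells and was at 2.22 ± 0.884 CPM in donors at 300 min (SD, n = 4 each). Of the members, Irs2 was the most like Fbxo32 (r = 0.755, rank 20 of 13168 genes), and Sesn1 was among the most unlike (r = -0.532, rank 12979).

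Of 34 other known FOXO targets tested, 4 were called in aSyn-treated against untreated cells without the block, 3 higher and 1 lower. The endothelial and lymphoid transcription factor gene Klf2 rose from 21.5 ± 9.24 to 132 ± 49.6 CPM (SD, n = 4 each; log2 fold change 2.61, edgeR adjusted p = 2.72e-04), and Tsc22d3, which encodes the glucocorticoid-induced protein GILZ, rose by 1.90 on the log2 scale (edgeR adjusted p = 0.00159). The translation inhibitor gene Eif4ebp1 rose by 0.84 (edgeR adjusted p = 0.0394), and the cyclin gene Ccnd1 fell by 2.65 (edgeR adjusted p = 0.00899). With the block 15 of the 34 were called, 11 higher and 4 lower. Of all genes, 2.50% were called without and 19.2% with the block, and the list's median log2 fold change was 0.11 without the block against -0.04 over all genes. In donors at 300 against 15 min Klf2 fell by 3.14 (edgeR adjusted p = 4.80e-05), the single call of 34 where 0.0759% of genes were called, and Tsc22d3 joined it with the block (log2 fold change -1.38, edgeR adjusted p = 4.45e-05). This list and those below were drawn up with earlier results of these data known. Their counts describe the listed genes, and nothing is read from them beside the shares of all genes.

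Of 26 genes of the PI3-kinase and AKT arm, 2 were called in aSyn-treated against untreated cells. Sgk1, a kinase that phosphorylates FOXO proteins at AKT sites, had means of 80.6 ± 20.1 CPM in untreated and 231.03 ± 69.1 CPM in aSyn-treated cells (SD, n = 4 each). It rose by 1.52 on the log2 scale (edgeR adjusted p = 0.0112), and the PI3-kinase catalytic subunit gene Pik3cg fell by 0.72 (edgeR adjusted p = 0.0480). With the block 11 of the 26 were called, 5 higher and 6 lower, beside the same shares of all genes as above. Of 18 other FOXO factors and regulators 0 were called by edgeR without the block (2 with an unadjusted p under 0.05) and 1 by DESeq2. With the block 2 of 18 were called, a share below the 19.2% of all genes, namely Mdm2 higher (log2 fold change 0.70, edgeR adjusted p = 3.17e-04) and Ywhaq lower (-0.23, edgeR adjusted p = 0.0200). Of 20 partners and paralogues of the members, 0 were called by edgeR without the block (3 with an unadjusted p under 0.05) and 1 by DESeq2. With the block 5 of 20 were called, near the share of all genes, among them the Sesn1 relative Sesn2 (log2 fold change 2.48, edgeR adjusted p = 0.0144) and the Txnip relative Arrdc4 (1.85, edgeR adjusted p = 4.22e-05), both higher in aSyn-treated cells, where Sesn1 and Txnip were lower.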

How the data were processed

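Per the labels, 3′ libraries (QuantSeq FWD, single 50 bp reads) were made from sorted or control microglia. The authors deposited raw counts per gene symbol for 54 libraries, and per the file headers a DESeq2-normalized signal, which equalled count over size factor for 100% of values (tolerance 0.05) and was used for that check only. STAR, Partek, DESeq2 and mm10 are named in the submitters' processing notes, with no versions or annotation, and strand use is not given in the sources used here.

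Same-numbered untreated libraries (experiments 2 and 4) differed less (chi-square per degree of freedom 12.1 and 10.3) than other untreated pairs (24.2 to 288) and were summed. Counts were tested with edgeR 4.0.16 and limma 3.58.1 in R 4.3.3: TMM, filterByExpr (minimum count 10), 1 mean for each of 14 groups, quasi-likelihood F test, Benjamini-Hochberg adjustment over 13169 genes, and calls under 0.05, in 22 pairwise comparisons and 3 F tests. CPM uses TMM-scaled totals, and log2 CPM a prior count of 2. Fold changes between libraries with different totals rest on this scaling. DESeq2 1.42.0 was an alternative, and the tests were checked on simulated data.

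Samples with the same replicate number deviated together from their group means in 76 of 76 pairs (correlation across genes 0.199 to 0.764, median 0.496), so the number was taken as a pairing and used as a block in a second fit. The labels give the number and the data the pairing. Other alternatives were DESeq2 size factors, no filter, only the groups compared, 6 untreated libraries apart, and each experiment left out.

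The members and all lists were chosen with earlier results of these data known. All 9 members are named, with samples printed for those called in either fit. Up to 4 genes of a list are named where called, by smallest p, together with the 5 genes most like Fbxo32. Ywhaq, Sesn2, Arrdc4 and the markers Cx3cr1, Map2, Olig1 and Pecam1 were named beside counts of called genes, and Foxo1 at 150 min was printed, after their values were seen. Some markers of the lists are not reported here by name.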

Additional observations from a re-analysis of the deposited data

Results flagged for a closer look

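In 7 of the 90 groups of 4 samples checked, over the 9 genes, the highest or lowest sample lay so far from the nearest of the others, relative to the group's whole range, that chance gives it in about 1 in 20 groups. All 7 samples belonged to experiment 4. Irs2 was involved 3 times, with experiment 4 highest each time: at 27.8 CPM in aSyn-treated cells (next 18.6), at 39.2 CPM in donors at 15 min (next 20.3) and at 122 CPM in acceptors at 60 min (next 26.7). Fbxo32 in acceptors at 30 min was at 17.9 CPM, with the next sample at 7.36 CPM. Txnip in donors at 30 min was lowest at 64.9 CPM, against 116 CPM for the next. Foxo1 in acceptors at 150 min was at 24.2 CPM, a small distance above the next at 22.8 CPM in a narrow group. Foxo3 in donors at 150 min was at 0.803 CPM, which rests on 11 counts. Experiment 4 also had the larger Rn45s share given above, and its part in these values was not tested.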

How the results depend on the processing

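The number of tests called among the members depended mainly on whether samples were compared within experiments. With the replicate block, calls went from 1 to 4 for aSyn-treated against untreated cells, from 0 to 7 for acceptors against untreated, from 0 to 6 for donors against acceptors, from 0 to 1 for 300 against 15 min and from 0 to 1 for acceptors over time. They stayed at 0 for donors against aSyn-treated cells, donors over time and the difference of time courses, and the block changed no other call among the members. Leaving out each experiment without the block gave 0 to 1 calls for aSyn-treated against untreated cells and 0 for the other comparisons. Leaving out each with the block, a setting chosen after seeing the data, gave 3 to 5 for aSyn-treated against untreated cells, 4 to 6 for acceptors against untreated, 2 to 5 for donors against acceptors, and 0 to 1 for donors against aSyn-treated cells, for 300 against 15 min and for donors over time. For acceptors over time it gave 0. The DESeq2 test called 1 for donors against acceptors. DESeq2 size factors, no filter, only the groups compared and separate untreated libraries changed none of these counts, and no value that passed a test changed its sign. The untested Fbxo32 difference between donors and acceptors at 300 min did change sign, from -0.21 on the log2 scale to 0.01 without experiment 4, and to 0.06 without it in the blocked fit. Over all genes, aSyn-treated against untreated gave 329 calls, 2524 with the block, 607 with DESeq2, 618 with 6 untreated libraries kept apart, 37 with only the groups compared, and 73 to 301 with an experiment left out. Foxo3, Sesn3 and Pik3ip1 are limited by depth, with 3 counts or fewer in 27, 12 and 5 of 52 samples.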
